A study of Mus musculus with 2 samples.

Results

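DPPA2 peaks lying where the ends of neighbouring protein-coding genes meet were examined in R1/E cells, a mouse embryonic stem cell line, by chromatin immunoprecipitation and sequencing (ChIP-seq). The peaks were taken from the list of the adriamycin library. A peak was a member when its summit, the base with the most fragments, lay within 1000 bp of an end of at least 2 different RefSeq protein-coding genes on chromosomes 1 to 19, X and Y. This gave 318 of 16229 adriamycin peaks (1.96%, 95% interval 1.75 to 2.18%), against 3006 peaks at the end of 1 gene and 12905 at no gene end. The same rule gave 99 of 7043 peaks (1.41%, 1.14 to 1.71%) in the untreated list. The study had 2 libraries: 1 of untreated cells, and 1 after 8 h of adriamycin, also called doxorubicin, which traps topoisomerase II on broken DNA. Both used the same DPPA2 antibody and p53+/+ cells grown on gelatin with leukemia inhibitory factor, and both carry the same batch entry. The treated group was read from its title, since its genotype entry names the drug and its treatment entry says apoptosis induction. The stated purpose was to find DPPA2 binding sites after DNA damage. Neither group had a replicate, so there was no test between them, and every interval below covers counting error only.

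DPPA2 binds DNA through a SAP domain, works with its partner DPPA4, is made in pluripotent and germline cells, and is known at CpG-rich promoters. Mammalian genes often lie head to head, with their starts close together and transcription running away from a common promoter. Such bidirectional promoters are typically rich in CpG and poor in TATA boxes, and many serve housekeeping, mitochondrial and DNA repair genes. Where genes meet in other ways, a start can lie near the far end of its neighbour, or far ends can lie together.

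The bases between the starts are shown for divergent pairs with a member, to show how short and CpG-rich that stretch can be. The summit itself can lie outside it, as at Mrpl40/Hira, 643 bp from the nearer start. They come from RefSeq promoters of GRCm38.p6, the same build as mm10, and each is the whole stretch between the starts on the + strand, 5′ to 3′. Capitals mark matches on either strand. The GC box was searched as the letters GGGCGG. The letters CCAAT and, in the promoter windows described further on, TATAAA were searched likewise. The longer motifs known for the activators NRF1 and ZNF143 were searched too, each with free bases in its middle. The first 3 are the strongest such pairs with an overlapping untreated peak.
Zswim7/Ttc19, chr11:62281396-62281428, +: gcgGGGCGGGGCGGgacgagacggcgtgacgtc
Slc26a8/Mapk14, chr17:28691274-28691341, +: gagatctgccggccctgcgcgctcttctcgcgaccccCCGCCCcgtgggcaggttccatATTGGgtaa
Mrpl40/Hira, chr16:18876638-18876749, +: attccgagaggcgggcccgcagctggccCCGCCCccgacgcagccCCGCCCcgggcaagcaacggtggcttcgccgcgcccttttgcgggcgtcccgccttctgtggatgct
The next 3 are the strongest such pairs with no overlapping untreated peak.
Stxbp4/Cox11, chr11:90638137-90638183, +: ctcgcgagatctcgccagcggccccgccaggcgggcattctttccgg
Cdr2/Mfsd13b, chr7:120982313-120982441, +: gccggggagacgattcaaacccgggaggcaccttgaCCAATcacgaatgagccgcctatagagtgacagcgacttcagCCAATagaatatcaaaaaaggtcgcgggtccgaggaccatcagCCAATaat
Atp5h/Kctd2, chr11:115419920-115420093, +: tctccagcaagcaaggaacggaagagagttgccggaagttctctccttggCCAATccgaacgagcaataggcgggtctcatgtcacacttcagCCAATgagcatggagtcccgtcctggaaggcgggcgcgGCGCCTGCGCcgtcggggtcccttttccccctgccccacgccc
The last 2 are among the pairs whose summit lay nearest to both ends.
Pdzd9/Mosmo, chr7:120677563-120677619, +: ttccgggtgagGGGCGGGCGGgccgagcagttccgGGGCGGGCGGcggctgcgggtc
Palb2/Dctn5, chr7:122132981-122133040, +: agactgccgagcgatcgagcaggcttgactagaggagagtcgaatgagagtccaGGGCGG
The stretches hold between 5 and 15 CpG dinucleotides each. GGGCGG occurs at least 2 times at Zswim7/Ttc19, Mrpl40/Hira and Pdzd9/Mosmo, and CCAAT occurs 3 times at Cdr2/Mfsd13b and not at all at Stxbp4/Cox11. Only pairs with a start in the promoter table that coincides with an end in the gene table were shown, and the shortest stretches were left out. A match of letters is a description and not a bound site.

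The members named 314 different pairs and 630 different genes. Of the 318 members, 314 lay at the ends of 2 genes and 4 at the ends of 3. At 4 pairs, among them 1110065P20Rik/Yrdc, Fam76b/Cep57 and Thap4/Atg4b, there were 2 member peaks each. The ends of a pair were a median of 183 bp apart (quartiles 73.8 and 477), and for 190 members (59.7%, 54.1 to 65.2%) they were at most 250 bp apart. Gene bodies overlapped in 144 members and lay apart in 174. At Asnsd1/Asdurf, Cpne1/Rbm12 and Chtf8/Derpc both genes have an end at the same base, so that 1 end stands for a pair of annotated genes. At Cpne1/Rbm12 this base is the start of both genes. A predicted or clone-named gene was part of 56 pairs. No member lay on chromosome X or Y, and 31 and 30 lay on chromosomes 2 and 7.

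Member peaks were of moderate height. Their median fold over local background, the authors' caller's own value, was 4.78 (quartiles 4.26 and 5.43, range 3.21 to 11.9), close to the 4.79 (4.27 and 5.52) of peaks at the end of 1 gene and under the 5.23 (4.44 and 6.41) of peaks at no gene end. The number of fragments at a summit was recovered from the fold and −log10 p for all 318 members, with a median of 14 (11 and 16, range 8 to 38). A fold of 7 or more was reached by 11 members, and a fold of 10 or more by 1. Local background was 5 or more times the lowest recovered background at 2 members, Hcn2/Polrmt and Comp/Crtc1. The fold is used to describe and rank peaks within a list, and cannot show whether binding at a pair differed between the libraries.

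**Figure D1:**
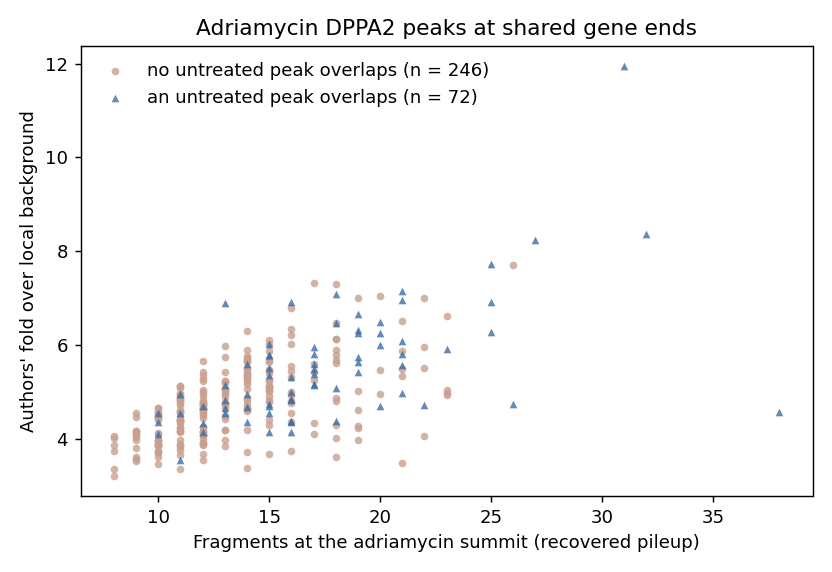
Each point is 1 of the 318 adriamycin peaks at shared gene ends, by the recovered number of fragments at its summit (x axis) and the authors' fold over local background (y axis). Triangles are the 72 peaks that an untreated peak overlaps and circles the 246 that none overlaps. The quartiles of the fragments are 11 and 16, and Gm40364/Gm40363 stands alone at a fold of 11.9.

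The first question was which of these places were also called without adriamycin. An untreated peak overlapped 72 of 318 members (22.6%, 18.2 to 27.6%), and 246 had none. The share was 34.4% of all adriamycin peaks, 27.7% of peaks at the end of 1 gene and 36.3% of peaks at no gene end. The interval for the members excludes the share of all peaks and ends just under that for 1 gene end. The members' share was 41.1% when the adriamycin list was cut to the length of the untreated list by −log10 q. It was 14.7% when a fold of at least 5 was required in both lists. The shares of the other peaks were not recomputed under these settings, so neither value can be set beside the shares above. Overlapped members had a median fold of 5.34 (4.70 and 6.03), a median width of 438 bp (342 and 564) and a median of 17 fragments. Members with no untreated peak had a fold of 4.71 (4.15 and 5.24), a width of 299 bp (231 and 369) and 13 fragments, and the ranges of fold and fragments overlapped. Where both lists had a peak, the summits were a median of 114 bp apart (47.5 and 208). Where the untreated list had none, its nearest summit was a median of 106700 bp away. It lay over 10000 bp away at 234 of 246 such members (95.1%). These distances were not measured for other adriamycin peaks, so they are not shown to be particular to the members. Conversely, 72 of the 99 untreated peaks at shared ends (72.7%, 62.9 to 81.2%) were overlapped by an adriamycin peak, against 79.7% of all untreated peaks and 76.1% of those at the end of 1 gene. Both lists shared 71 pairs and 146 genes.

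The overlapped share rose with peak strength in every class of peaks, and that of the members was the lowest in each of the 4 groups below. When the whole adriamycin list was divided into 4 equal groups by −log10 q, an untreated peak overlapped 7 of 93 members (7.53%, 3.08 to 14.9%) in the weakest group, 17 of 94 (18.1%, 10.9 to 27.4%) and 23 of 83 (27.7%, 18.4 to 38.6%) in the next groups, and 25 of 48 (52.1%, 37.2 to 66.7%) in the strongest. For peaks at the end of 1 gene the corresponding shares were 10.5%, 19.4%, 33.7% and 65.1%. For peaks at no gene end they were 12.4%, 19.2%, 35.1% and 73.1%. In the strongest group the members' interval excluded the share of peaks at no gene end and included that of peaks at the end of 1 gene. In the other groups it included both. Only 48 of the 318 members fell in the strongest group.

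**Figure D2:**
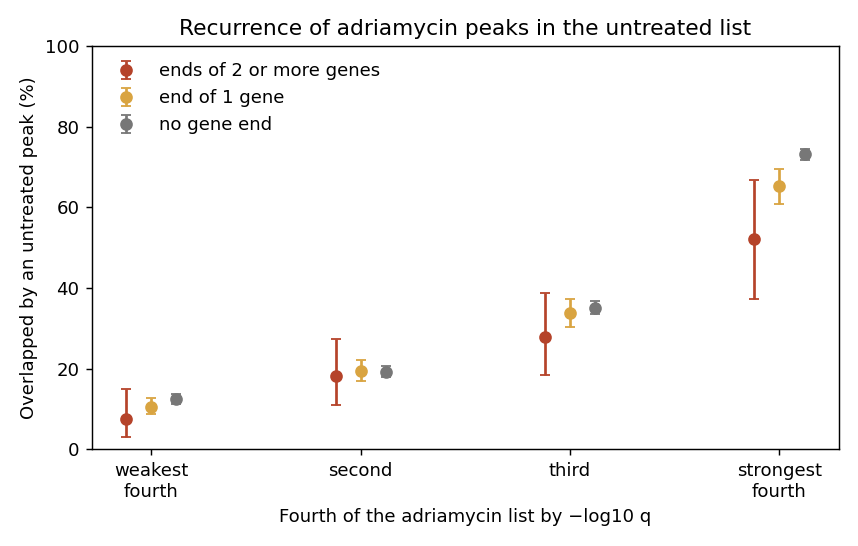
The y axis gives the percent of adriamycin peaks that an untreated peak overlaps, and the x axis 4 equal groups of the whole adriamycin list by −log10 q. Points are shares and bars 95% exact binomial intervals for peaks at the ends of 2 or more genes, at the end of 1 gene and at no gene end. Members rise from 7.53% in the weakest group to 52.1% in the strongest.

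The second question was which kinds of gene ends met at the members. Gene direction was known for both genes of 236 members. Of these, 175 (74.2%, 68.1 to 79.6%) lay at 2 gene starts, 43 (18.2%, 13.5 to 23.7%) at a start and a far end, and 18 (7.63%, 4.58 to 11.8%) at 2 far ends. In the untreated list 53 of 70 classed peaks (75.7%, 64.0 to 85.2%) lay at 2 starts. The gene table itself is less one-sided: it holds 1048 start-to-start pairs, 975 of a start and a far end and 1106 of far ends whose ends lie within 2000 bp of each other. Among start-to-start members 93 were divergent with bodies apart, 79 were divergent with overlapping bodies and 3 were on the same strand. An untreated peak overlapped 44 of 175 members at 2 starts (25.1%, 18.9 to 32.2%), 5 of 43 at a start and a far end (11.6%, 3.89 to 25.1%) and 5 of 18 at 2 far ends (27.8%, 9.69 to 53.5%). These intervals overlap.

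An adriamycin summit within 1000 bp of both ends was found at 171 of 1048 start-to-start pairs (16.3%, 14.1 to 18.7%), at 45 of 975 start and far end pairs (4.62%, 3.39 to 6.13%) and at 18 of 1106 far end pairs (1.63%, 0.967 to 2.56%). Lone starts, with no end of another protein-coding gene within 2000 bp, had a summit in 13.9% of cases (1953 of 14072, 13.3 to 14.5%), and lone far ends in 1.79% (248 of 13828). In the untreated list the shares were 5.15% of start-to-start pairs (3.89 to 6.67%), 0.718% of start and far end pairs (0.289 to 1.47%), 0.904% of far end pairs (0.434 to 1.66%), 5.14% of lone starts and 0.817% of lone far ends. Far end pairs were thus hit about as rarely as lone far ends, their intervals overlapping in both lists. The stretch near both ends of a pair is shorter than the stretch near a lone end. At divergent pairs with bodies apart only 11.8% of its bases lie between the starts. A lone start's stretch reaches as far before the gene as into it, and 89.0% of adriamycin summits there lay on the side of the gene. Densities at pairs and at lone starts are therefore not of like stretches. Per Mb of such stretch the adriamycin list had 100.5 summits at start-to-start pairs (86.1 to 117), 70.9 at lone starts (67.8 to 74.0), 42.0 at start and far end pairs (30.6 to 56.1) and 12.2 at far end pairs (7.26 to 19.4). For the untreated list these were 31.2 (23.4 to 40.7), 26.1 (24.2 to 28.1), 6.53 (2.62 to 13.4) and 6.80 (3.26 to 12.5). Over all kinds together, 314 of 4230 stretches near the ends of 2 or more genes held an adriamycin summit (7.42%), against 7.19% of 40936 stretches near the end of 1 gene. For untreated summits the shares were 2.34% and 2.64%. The stretches near 2 or more genes are shorter, with a median of 1558 bp against 2001 bp. Per Mb they held 54.7 adriamycin summits (48.8 to 61.0), against 41.0 (39.5 to 42.4) near 1 gene. The untreated densities were 17.0 (13.8 to 20.7) and 15.0 (14.1 to 15.9). Both sets of stretches mix starts and far ends. Of all 4810 pairs with ends within 2000 bp, 6.59% had an adriamycin summit and 2.1% an untreated one. Of all 21887 protein-coding genes, 16% had an adriamycin peak at an end and 5.78% an untreated one.

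**Figure D3:**
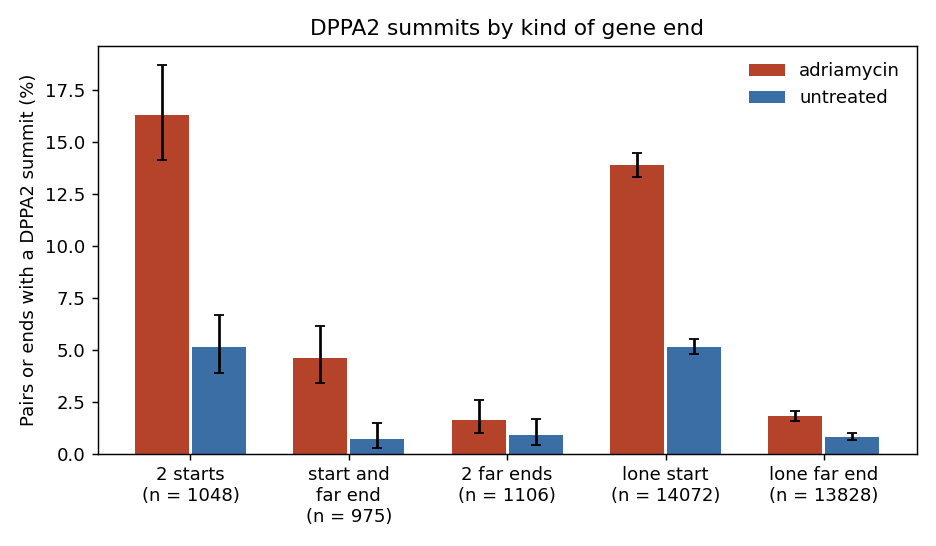
Bars give the percent of gene pairs, or of lone gene ends, with a DPPA2 summit within 1000 bp (of both ends for pairs), and lines the 95% exact binomial intervals; the number of pairs or ends is under each kind. Start-to-start pairs (16.3% with adriamycin, 5.15% untreated) and lone starts (13.9% and 5.14%) are the highest kinds in both libraries.

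Of the 93 members at divergent pairs with bodies apart, 86 (92.5%, 85.1 to 96.9%) had the summit inside 1 of the genes, a median of 252 bp from the nearer start (quartiles 159 and 344), and 7 had it between the starts. The stretch between the starts makes up 11.8% of the bases within 1000 bp of both starts of such pairs, and the interval of the 7.53% of summits between them (3.08 to 14.9%) includes that share. At lone starts 1775 of 1995 adriamycin summits (89.0%, 87.5 to 90.3%) lay on the side of the gene. The median position of all 1995 summits, those before the start included, was 266 bp inside. The 252 bp at divergent pairs is of the 86 summits inside a gene only, so these medians are of unlike sets. At divergent pairs 28.0% of summits lay 200 to 300 bp inside the gene, the most of any 100 bp. At lone starts the 100 bp up to 200 and up to 300 bp inside held nearly the same number, 348 and 349 of 1995. The rule limits how far from both starts a summit at a pair can lie, so shares per 100 bp at pairs and lone starts cover unlike ranges.

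**Figure D4:**
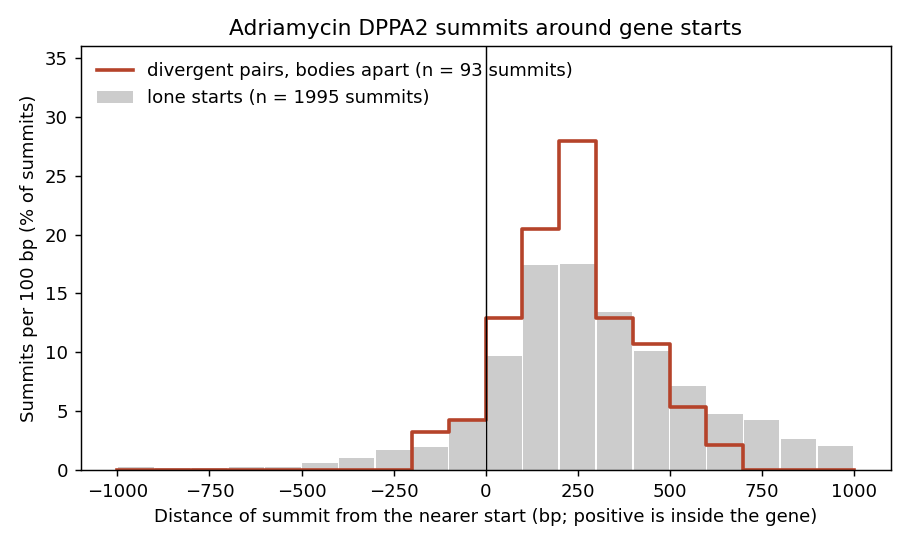
Distance of adriamycin summits from the nearer gene start (x axis, bp, positive inside the gene) against the percent of summits per 100 bp (y axis). Grey bars are 1995 summits at lone starts and the line 93 summits at divergent pairs with bodies apart, where the rule itself limits how far outside both starts a summit can lie. At 200 to 300 bp inside the gene lie 17.5% of summits at lone starts and 28.0% (26 of 93) at divergent pairs. The rule also limits how far inside a gene a summit at a pair can lie, so these shares cover unlike ranges.

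Sequence around the starts was compared in RefSeq promoter windows, 250 bases before to 50 after a gene's start. Of the 626 genes at the nearest ends of the members 515 (82.3%) had one, and the summit itself lay inside such a window in 72 of 318 members. Genes of start-to-start members had CpG-rich windows, with a median of 28 CpG dinucleotides (quartiles 20 and 36, n = 344) and 66.0% G and C. Genes of all start-to-start pairs had 22 (15 and 30, n = 2059), genes with a lone start and an adriamycin summit there 25 (15 and 34, n = 1953), and all genes with a window 13 (4 and 24, n = 17492). The median was 29 for start-to-start members with an untreated peak and 27 for those without. The letters TATAAA, as in a TATA box, were in 1.74% of the 344 windows (0.643 to 3.76%), against 5.83% of all start-to-start genes, 13.3% of all genes and 6.66% of genes with a lone start and a summit there. GGGCGG was in 68.9% (63.7 to 73.8%), against 63.0%, 46.3% and, at lone starts with a summit, 71.8%, so that members were not above the latter. CCAAT was in 35.5% (30.4 to 40.8%), against 41.1%, 39.2% and 31.4% in the same order. The motif like that of NRF1, an activator of nuclear genes for mitochondria, was in 15.4% (11.8 to 19.7%), against 14.3%, 6.66% and 8.86%. The ZNF143-like motif was in 4.36% (2.46 to 7.09%), against 6.02%, 2.78% and 2.46%. All were searched on both strands, and the GC box and the NRF1-like motif can overlap. Windows of paired genes share bases, so that the 344 windows are not independent.

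DPPA2 summits were most frequent at starts with the most CpG, and the density rose through all groups at lone starts and from 5 CpG upwards at pairs. Among starts with 25 or more CpG per window, the adriamycin list had 143 summits per Mb at start-to-start pairs (117 to 173) and 165 at lone starts (155 to 175). With 20 to under 25 CpG it had 95.8 (66.8 to 133) and 97.9 (86.9 to 110), and with 15 to under 20 it had 73.2 (46.9 to 109) and 79.8 (69.7 to 91.0). The pairs were lower than the lone starts in each of these groups, with overlapping intervals. Over all starts the pairs were higher, 100.5 against 70.9, and the intervals did not overlap. The stretches of pairs and lone starts are unlike, and the cause of this difference was not tested. With 10 to under 15 CpG the density was 43.1 at pairs (18.6 to 85.0) and 66.6 at lone starts (57.3 to 77.1), and with 5 to under 10 it was 10.7 (0.271 to 59.7) and 43.3 (37.1 to 50.2). With under 5 CpG it was 60.9 (7.37 to 220), on 2 summits at 24 pairs, and 11.4 (9.32 to 13.7). The group with 25 or more held 409 of 1048 pairs and 3109 of 14072 lone starts. Mean CpG of both windows was used for a pair.

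**Figure D5:**
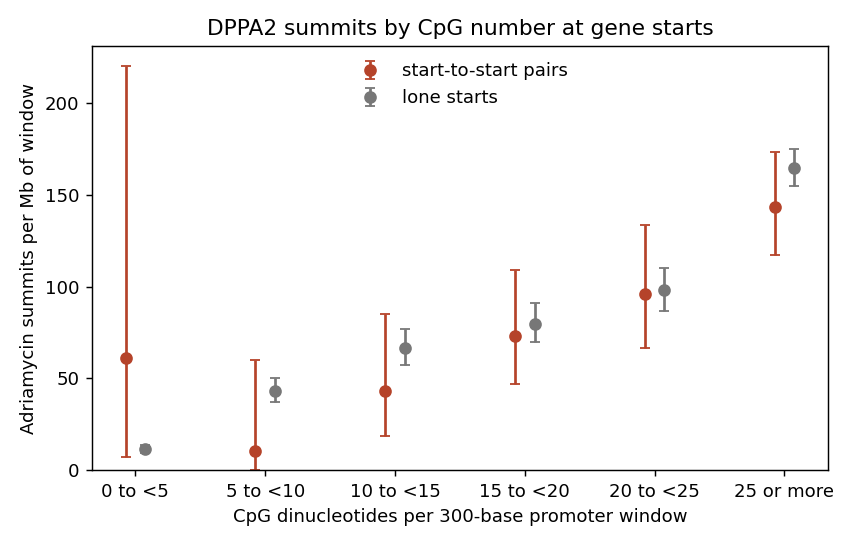
Adriamycin summits per Mb within 1000 bp of the start, or of both starts (y axis), by the number of CpG dinucleotides in the 300-base promoter window (x axis; the mean of both windows for a pair). Points are densities with 95% exact Poisson intervals. Lone starts rise through all groups to 165 per Mb, and pairs rise from 10.7 with 5 to under 10 CpG to 143 with 25 or more, while the lowest group of pairs (60.9) rests on 2 summits at 24 pairs.

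The strongest members called in both libraries were led by a pair of predicted genes, and 6 of the 8 strongest were start-to-start pairs. Gm40364/Gm40363, 2 predicted genes at chr6:47682155-47682513, had 31 fragments (21.1 to 44.0) and a fold of 11.9 with adriamycin, and 28 fragments (18.6 to 40.5) and a fold of 11.8 untreated. A further predicted pair nearby on chromosome 6, Gm40365/Gm36327, had folds of 6.33 and 5.45. Zswim7, a partner in homologous recombination, and Ttc19, an assembly factor of respiratory complex III, start 34 bp apart. Their peak at chr11:62281374-62281856 had 32 fragments (21.9 to 45.2) and a fold of 8.38 with adriamycin, and 21 (13.0 to 32.1) and 7.10 untreated. Slc26a8, an anion transporter gene of sperm, and Mapk14, which encodes the stress kinase p38 alpha, start 69 bp apart. The peak there, chr17:28691076-28692072, lay 294 bp inside Mapk14 and had 27 fragments (17.8 to 39.3), fold 8.24, against 18 (10.7 to 28.4), fold 5.43, untreated. The fragment intervals of both libraries overlapped at each of these pairs, without correction for depth.

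Further pairs called in both lists were the mitochondrial ribosomal gene Mrpl40 with the histone chaperone gene Hira, Atxn7 with Thoc7, Katnbl1 with Emc4, the S6 kinase gene Rps6kb1 with the tubulin gene Tubd1, and Ccdc92 with the zinc finger gene Zfp664. At Mrpl40/Hira the peak chr16:18877024-18877591 lay 643 bp inside Hira and had 25 fragments (16.2 to 36.9), fold 7.74, against 18 (10.7 to 28.4), fold 4.85, untreated. Adriamycin folds at the other 4 were between 6.91 and 7.14, and untreated folds between 4.17 and 6.25.

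The strongest members with no untreated peak had folds of 6.63 to 7.71. Cct7, which encodes a subunit of the TRiC chaperonin, and Pradc1 overlap at their starts, and their peak at chr6:85451221-85451656 had 26 fragments (17.0 to 38.1) and a fold of 7.71. The nearest untreated summit lay 199134 bp away. Cox11, a copper chaperone gene of cytochrome c oxidase, and Stxbp4 start 48 bp apart, with a peak at chr11:90638207-90638686 of 17 fragments (9.90 to 27.2) and a fold of 7.32. Vcpkmt/Sos2 was a start beside a far end (fold 7.31, 18 fragments). Rita1/Ddx54 (7.05, 20 fragments), Cryzl1/Itsn1 (7.01, 22) and Cdr2/Mfsd13b (6.99, 19) were divergent, and Ccdc174/Grip2 (6.63, 23) had overlapping starts. H2ac6/H2bc4, a histone H2A and an H2B gene 240 bp apart, had 16 fragments (9.15 to 26.0) and a fold of 6.80, with the nearest untreated summit 596779 bp away.

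At the other end of the range, Ssh2/Efcab5 had 8 fragments (3.45 to 15.8), a fold of 3.21 and the lowest −log10 q of the members, 1.40. Its summit also lay among the nearest to both ends, 51 and 19 bp away. Gm45095/Cebpg, Taf5l/Urb2, Cdk7/Ccdc125 and Ap3b2/BC048679 were the next weakest, with 8 to 10 fragments and folds of 3.36 to 3.57. Nearest to both ends was Fbxw2/Gm34653, 13 and 21 bp from the starts, with 10 fragments and a fold of 3.96. Gak/Tmem175 (33 and 35 bp, fold 3.82), Pdzd9/Mosmo (47 and 11 bp, fold 4.25) and Palb2/Dctn5 (6 and 55 bp, fold 4.96) followed. None of these 9 pairs had an overlapping untreated peak. At the limit of the rule, Il25/Cmtm5 was just inside with its farther end at 997 bp (fold 4.19), and Mpnd/Stap2 just outside at 1002 bp (fold 6.56), where an untreated peak overlapped. Sdr39u1/Khnyn (994 bp, fold 5.26) and Tgif2/LOC115486128 (992 bp, 5.08) were also just inside, and Exosc6/Aars (1004 bp, 4.50) and Setd6/Ndrg4 (1012 bp, 4.82) just outside.

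Members near 3 genes were Eif4enif1/Gm51877 with Sfi1 (fold 6.02 with adriamycin, 4.48 untreated), Gm45935/Cab39l with Setdb2 (4.37 and 4.80), 1110065P20Rik/Yrdc with Mtf1 (4.36) and Chtf8/Derpc with Utp4 (4.35). The last 2 had no untreated peak.

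DNA replication and repair genes were met at members in 9 of 74 cases with an end within 2000 bp of another gene's end (12.2%, 5.71 to 21.8%), against 8.94% of all 7048 such genes, a share inside that interval. They included Fancf, Parp9, Pole, Polk, Rad17, Rad51d, Rad54b and Rpa3, and at Pole, Polk and Rad51d an untreated peak overlapped. Pole, the catalytic subunit of the leading-strand polymerase, had the summit 86 bp from its end, and Pxmp2 11 bp (chr5:110285894-110286520), with 13 fragments (6.92 to 22.2) against 20 (12.2 to 30.9) untreated. Rad51d, which serves homologous recombination, and Rffl had 21 fragments (13.0 to 32.1) against 12 (6.20 to 21.0). Polk, a translesion polymerase, and Cert1 had 11 (5.49 to 19.7) in both.

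Other repair genes outside that list, named after their values were seen, were Pms1, Pms2, Palb2, Wrn, Recql, Smc6, Gen1 and Dclre1c. Repair genes outside the list that had no member were not counted, so no share can be given for these. Pms1/Ormdl1 (chr1:53296816-53297382) had 20 fragments (12.2 to 30.9) with adriamycin and 27 (17.8 to 39.3) untreated, folds 6.25 and 7.41. The RecQ helicase gene Wrn, with Purg, had 15 fragments (8.40 to 24.7) and 13 (6.92 to 22.2). Aimp2/Pms2 (fold 4.71), Palb2/Dctn5 (4.96), Recql/Golt1b (5.88), Smc6/Gen1 (4.13) and Dclre1c/Suv39h2 (4.58) had no untreated peak.

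For the other groups the interval also included the 8.94% of all genes, except for predicted or clone-named genes. Splicing and RNA genes were met in 9 of 69 cases (13.0%, 6.14 to 23.3%), transmembrane, coiled-coil and Fam genes in 27 of 246 (11.0%, 7.36 to 15.6%), and solute carriers in 12 of 127 (9.45%, 4.98 to 15.9%). Mitochondrial ribosomal genes were met in 4 of 50 (8.00%, 2.22 to 19.2%), respiratory chain genes in 5 of 65 (7.69%, 2.54 to 17.0%), proteasome and ubiquitin genes in 10 of 129 (7.75%, 3.78 to 13.8%) and zinc finger genes in 7 of 110 (6.36%, 2.60 to 12.7%). Of aminoacyl-tRNA synthetase genes, which charge transfer RNAs, 4 of 19 were met (21.1%, 6.05 to 45.6%), among them Iars2, Kars and Yars, which had no untreated peak. Olfactory, vomeronasal and trace amine receptor genes were at no member, 0 of 22, which allows up to 15.4%. Predicted or clone-named genes were met in 59 of 415 cases (14.2%, 11.0 to 17.95%), above 8.94%, and are less securely annotated than the rest.

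Histone genes were met in 3 of 55 (5.45%, 1.14 to 15.1%), namely H2ac6, H2bc4 and H2az1, and cytosolic ribosomal genes in 2 of 41 (4.88%, 0.596 to 16.5%), Rpl7 and Rpl36al. Cell cycle genes were met in 3 of 40 (7.50%, 1.57 to 20.4%) and membrane traffic genes in 3 of 78 (3.85%, 0.800 to 10.8%). Of genes listed by symbol as mitochondrial import and factors, 3 of 29 were met (10.3%, 2.19 to 27.4%). These were Coq4 and Coq5, which serve ubiquinone synthesis, and Mtf1, which encodes a metal-responsive transcription factor and not a mitochondrial protein. Both genes of a pair were in the same group at Zbtb1/Zbtb25, Ccdc146/Fam185a (fold 5.40), Fam162a/Ccdc58 (4.17) and Gm11127/Gm6034 (5.50), among others.

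Pairs of related genes, judged by symbol with predicted or clone-named genes left out, were uncommon. Symbols sharing their first 4 letters marked 7 members (2.20%, 0.889 to 4.48%). Pairs such as Gm40364/Gm40363 were therefore not counted. Such symbols made up 508 pairs of neighbouring ends, of which 7 held an adriamycin summit (1.38%, 0.556 to 2.82%). The share was 6.59% of all 4810 pairs, among which predicted or clone-named genes were kept. The ends of the 508 pairs were a median of 3 bp apart, against 386 bp for all pairs. Where several genes share an end, every combination of them counted as a pair. The pairs are therefore not independent, and the shares are not of like pairs. The 7 members included both pairs of type IV collagen genes seen here, which encode chains of basement membranes. Col4a3/Col4a4 (chr1:82586799-82587329) had 17 fragments (9.90 to 27.2) and 15 (8.40 to 24.7) untreated, and Col4a2/Col4a1 (chr8:11312476-11312879) 19 (11.4 to 29.7) and no untreated peak. The GABA receptor subunit pair Gabrb1/Gabra4 had 9 fragments and no untreated peak, and Tor1aip2/Tor1aip1 had 12 and none. Zbtb1/Zbtb25 (18 and 18 fragments) and Ly6g6f/Ly6g6d (19 and 17) were called in both lists. Hspe1/Hspd1, which encode the mitochondrial chaperonin HSP10 and HSP60 and were picked after their values were seen, had 15 fragments (8.40 to 24.7), fold 5.10, and no untreated peak.

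Of the 99 untreated peaks at shared ends, 27 had no overlapping adriamycin peak. The strongest by fold were Dnajc11/Thap3 (5.83, 23 fragments), Hs2st1/Selenof (5.22, 13) and Ccdc40/Tbc1d16 (5.06, 15), with the nearest adriamycin summits 27775, 84677 and 17732 bp away. At Bag1/Chmp5 and Cds1/Gm42134 both lists had a peak at the pair without overlap, with summits 433 and 453 bp apart.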

How the data were processed

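DPPA2 peaks of 2 ChIP-seq libraries were used, 1 per group. Per the submitters' processing notes the authors used MACS3 3.0.0b1 on build mm10, after Bowtie2 2.5.1 and SAMtools, with FastQC 0.12.1 and deepTools 3.5.1 as further tools. What commands, filters or input they used is not given in the sources used here. The deposited lists give each peak's fold (a ratio of summit over local background, per library), −log10 p and −log10 q, a whole-number score (the q value's −log10 times 10), and the offset of the summit. Read depth is unknown.

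Peaks off chromosomes 1 to 19, X and Y were left out (142 with adriamycin, 126 untreated). Gene ends came from RefSeq GRCm38.p6, the same assembly as mm10 (21887 protein-coding genes). Gene direction came from the promoter table, which holds 79.9% of these genes and none of chromosome 18. Exons, introns and UTRs were not used here. Summit fragments were recovered by finding the whole number that gives both fold and −log10 p (pseudocount 1, tolerance 0.001 on −log10 p). This worked for 99.9% of adriamycin and 99.8% of untreated peaks. Overlap meant 1 shared bp. Intervals at 95% are exact: Clopper-Pearson binomial where a share is given, Poisson where fragments or densities are. They cover counting error only, and treat peaks and genes as independent. No test was run, since each group has 1 library, and lists of unequal length from libraries of unknown depth cannot show whether binding changed. The steps ran in pandas 2.3.3 and numpy 2.4.6 under Python 3.11.15, with scipy 1.17.1 for intervals, and were tested on simulated data.

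The members and gene lists were chosen with earlier results of these data known. Pairs named were the 8 of highest fold with and the 8 without an overlapping untreated peak, the 5 nearest to both ends, the 5 of lowest −log10 q, those near 3 genes, up to 3 per gene group with both genes in it, and those at the limit of the rule. Genes outside this rule, including the repair genes beyond the list, collagen, GABA receptor and chaperonin pairs, were picked after their values were seen. Some results are not reported here. The alternatives were windows of 500 and 2000 bp, stricter q or fold, equal list lengths, other overlap rules, and leaving out predicted genes or overlapping gene bodies.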

Additional observations from a re-analysis of the deposited data

How the results depend on the processing

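Of 46 values recomputed under other settings, 17 stayed within the 95% interval of the reported value, or within 1.5 times it for counts, and 29 moved. A window of 500 bp gave 184 member peaks, 368 genes, 5.88% of shared-end stretches with a summit, 88.4% of classed members at 2 starts and 49 untreated peaks. With 2000 bp these were 502, 966, 8.50%, 55.0% and 161, and the median fold was 4.69. With q of at most 1e-05 in both lists there were 143 member peaks, 285 genes, 3.36% of stretches, a median fold of 5.50 and 38 untreated peaks. With a fold of at least 5 in both lists there were 129, 257, 3.03%, 5.60 and 35, and an untreated peak overlapped 14.7% of members. Cutting the adriamycin list to the length of the untreated list, by −log10 q, left 112 member peaks, 225 genes, 2.65% of stretches and a median fold of 5.69, with 41.1% overlapped. Requiring genes whose bodies do not overlap left 175 member peaks. Requiring an overlap of at least 50% of each peak gave 16.0% overlapped. Leaving out predicted genes moved no value. The smaller counts under stricter settings follow from fewer peaks, and the cause of the moved shares was not tested. Overlap shares of peaks outside the members were not recomputed under these settings.

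No paired analysis was possible because each group has 1 library and the labels carry no replicate numbers. Summits of members held 8 to 38 fragments, and a member without an untreated peak is not shown to lack DPPA2 there. Neither library depth nor an input profile was used here.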
